A study of Mus musculus with 4 samples.

Results

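The p53 pathway was described through 32 genes: Trp53, its direct regulators and its known target genes, chosen by name from a list. This list and the further lists below were chosen with earlier results of these data known. Their shares beside all tested genes are therefore descriptions only. All 32 were found among the 52636 gene lines of the count table by matching Ensembl IDs to mouse symbols, and 26 of them held enough counts to be tested, out of 11444 tested genes. RNA came from mouse Hoxb8 cells, a line named for the homeobox gene Hoxb8, which is used to hold blood progenitors in culture. One group carried an empty vector (EV, n = 2 libraries) and the other expressed DNMT3A R882H (R882H, n = 2), a leukaemia-associated substitution in a DNA methyltransferase. The labels give no vector, promoter, clone, animal, age or culture for either group. Nothing says that the libraries of a group came from separate cultures, so the spread behind each p-value may be technical. The libraries were made with a 3′ tag protocol (QuantSeq), which reads the end of each polyadenylated transcript, and held between 5470330 and 5921985 counts.

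The transcription factor p53 is kept low in unstressed cells by Mdm2, a ubiquitin ligase that marks it for degradation, and by the related inhibitor Mdm4. Kinases activated by DNA damage or replication stress, and the Arf product of Cdkn2a, release p53 from Mdm2. It then binds response elements near genes that stop the cell cycle, repair DNA, restrain growth or trigger apoptosis, and in blood progenitors this programme limits expansion. Much of the control acts on the protein, which RNA counts do not measure.

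In R882H cells 5 of the 6 tested members that act on the cell cycle and on growth rose, beside 19.3% of all tested genes. The secreted factor Gdf15 and the death receptor Fas fell to a few counts per library. Cyclins G1 and G2 rose 2.73-fold and 3.27-fold, and the sestrins Sesn1 and Sesn3 rose 2.11-fold and 3.27-fold. Gdf15 fell to 1.02 ± 0.208 CPM from 16.3 ± 1.33 CPM (SD, n = 2), where CPM is the count scaled to library size. The Trp53 transcript was not called, and none of the 5 DNA repair and nucleotide supply members was. By edgeR's quasi-likelihood test, with an adjusted p under 0.05 over all tested genes as the threshold, 12 of the 26 tested members (46.2%) were called, beside 38.8% of all tested genes. Of the 26 tested members, 9 rose, beside 19.3% of all tested genes, and 3 fell, beside 19.4%. Among all 4435 called genes, 2213 rose and 2222 fell. The median log2 fold change (R882H over EV) was 0.33 for the tested members and 0.01 for all tested genes. Of the 26 tested members, 6 were called and rose by at least 2-fold, and 2 were called and fell by as much. Beside them, 14.1% of all tested genes were called and past that size in either direction. Both R882H libraries lay above both EV libraries in 13 of the 26 members, beside 35.2% of all tested genes, and below them in 6, beside 33.9%. The groups overlapped in the remaining 7, and 69.1% of all tested genes had groups that did not overlap.

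**Figure D1:**
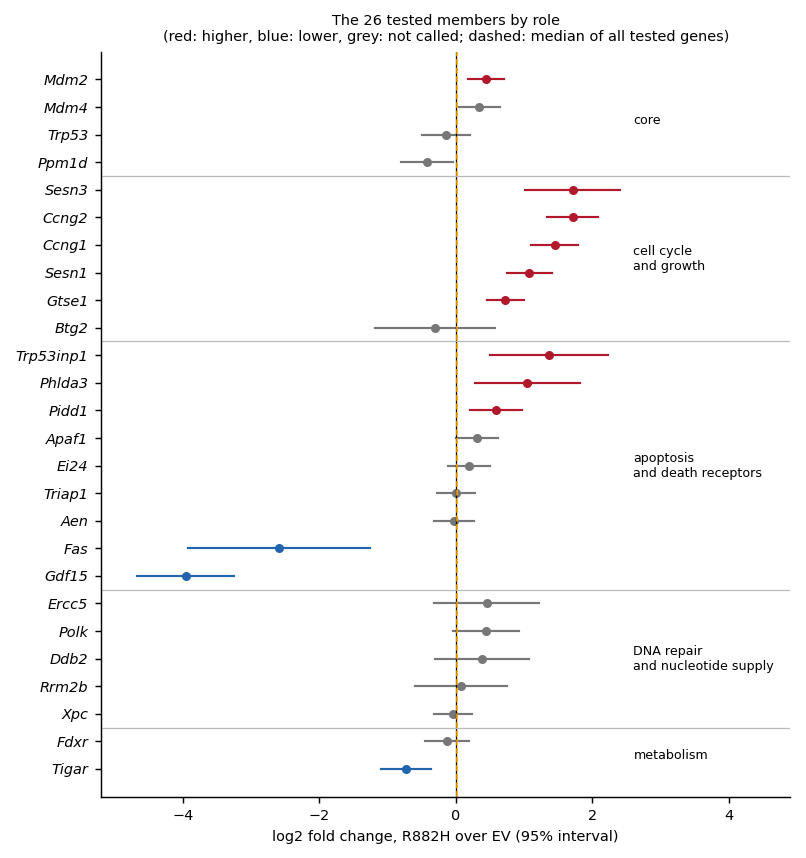
Log2 fold change (R882H over EV) of the 26 tested members, grouped by role, with 95% intervals from the edgeR fit over 4 libraries; the dashed line is the median of all tested genes, 0.01. Cell cycle and growth members sit mostly to the right, Gdf15 at −3.96 and Fas at −2.60 to the left, and the 5 repair and nucleotide supply members have intervals that cross 0.

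Sequences near the transcription starts are shown first for the called members whose promoter holds a p53 response element by the search used here, Sesn1 and Tigar in full and Gtse1 as the element alone, since they show what such a site looks like in a gene that rose and in one that fell. The classical p53 target Cdkn1a, not a member, is shown beside them for reference and was chosen after its values were seen. The search looked for 2 half-sites of 10 bases, each with an intact core (C and G around 2 bases that are each A or T), purines before and pyrimidines after the core, a spacer of 0 to 13 bases and at most 3 mismatches outside the cores. The half-site reads the same on both strands, so 1 pass covers both, and overlapping matches count once per window. Capitals mark the half-sites of the match with the fewest mismatches. The first 3 sequences are the 250 bases before a RefSeq start, read 5′ to 3′ on the gene's strand (RefSeq, GRCm38.p6, the assembly of mm10).
Sesn1 upstream, chr10:41887189-41887438, plus strand: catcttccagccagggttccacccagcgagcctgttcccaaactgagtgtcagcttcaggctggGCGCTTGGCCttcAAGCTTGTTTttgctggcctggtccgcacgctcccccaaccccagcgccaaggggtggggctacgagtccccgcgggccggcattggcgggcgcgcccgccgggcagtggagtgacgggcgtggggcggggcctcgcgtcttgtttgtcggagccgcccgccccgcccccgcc
Tigar upstream, chr6:127109553-127109802, minus strand: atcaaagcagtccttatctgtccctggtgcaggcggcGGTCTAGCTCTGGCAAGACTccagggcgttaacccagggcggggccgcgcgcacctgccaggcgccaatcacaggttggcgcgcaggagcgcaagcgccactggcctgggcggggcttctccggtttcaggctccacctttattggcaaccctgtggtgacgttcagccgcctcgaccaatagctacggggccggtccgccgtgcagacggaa
Cdkn1a upstream, chr17:29090729-29090978, plus strand: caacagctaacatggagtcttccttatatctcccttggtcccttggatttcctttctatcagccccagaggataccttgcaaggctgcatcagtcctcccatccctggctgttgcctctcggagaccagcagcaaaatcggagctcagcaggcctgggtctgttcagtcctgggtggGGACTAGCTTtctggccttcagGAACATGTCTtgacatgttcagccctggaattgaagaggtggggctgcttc
Gtse1 element, chr15:85859945-85859964, plus strand, crossing the start: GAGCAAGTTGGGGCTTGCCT
Cdkn1a element without a spacer, within the window above: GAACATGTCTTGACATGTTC

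The Sesn1 element, with 2 mismatches, lay 186 bases before a start inside the gene. The other Sesn1 window, chr10:41810324-41810623 near the gene's 5′ end, held no match, and 3′ tags do not show which start is used. The element lay 213 bases before the Tigar start with 3 mismatches, and the Gtse1 element had 1 mismatch. In Cdkn1a the match with no mismatch had a spacer of 12 bases, and the pair without a spacer had 1 mismatch. The other Cdkn1a window, chr17:29093519-29093818, and the other Gtse1 window, chr15:85859457-85859756, held no match. The table of promoters covered 25 of the 32 members, and 6 of those 25 genes (24%) held a match in at least 1 window, the others being Trp53, Mdm4 and Aen. Among all 8578 tested genes with a window the share was 6.16%, and among all 32851 windows it was 6.72%. Within the members, 2 of 8 genes that rose, 1 of 3 that fell and 3 of 11 that were not called held a match. These counts are too small to compare the directions of change, and no test was made. A match is a string of letters and was not tested for binding, and elements outside these windows were not searched. The median number of CpG sites per window was 21 for the members and 21 for tested genes.

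Among the regulators, Trp53 itself (ENSMUSG00000059552, mm10 chr11:69580359-69591873) had 27.5 and 38.7 CPM in the EV libraries and 30.0 and 29.8 CPM in the R882H libraries. Both R882H values fell between the EV values, and the log2 fold change was −0.15 ± 0.17 (SE; 95% interval −0.50 to 0.21, adjusted p = 0.533). Mdm2 (ENSMUSG00000020184, chr10:117688875-117710758), both the main inhibitor of p53 and one of its best known targets, had 71.9 and 76.6 CPM in EV and 97.2 and 104 CPM in R882H. The R882H libraries were both above the EV libraries, and Mdm2 rose 1.36-fold (log2 fold change 0.44 ± 0.13, adjusted p = 0.00784). Without R882H replicate 2 the adjusted p for Mdm2 was 0.101. The inhibitor Mdm4 had 44.0 and 48.2 CPM in EV and 64.9 and 51.8 CPM in R882H, without overlap, and was not called (0.34 ± 0.15, adjusted p = 0.0644). The phosphatase gene Ppm1d, whose product Wip1 switches off p53 and the kinases above it, had 21.3 and 29.8 CPM in EV and 19.9 and 18.1 CPM in R882H. Its R882H values lay below both EV values and it was not called (−0.43 ± 0.19, adjusted p = 0.0677). Calls of Mdm4 (0.0394, without R882H replicate 2) and Ppm1d (0.0148, without EV replicate 1) appeared in 1 alternative each.

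Targets that act on the cell cycle and on growth gave most of the rises: of 8, 5 rose, none fell, 1 was not called and 2 did not pass the filter on low counts. Over all tested genes, 19.3% rose and 19.4% fell. Ccng1, the cyclin G1 gene (ENSMUSG00000020326, chr11:40748552-40755311), had 18.3 and 16.4 CPM in EV and 47.0 and 47.7 CPM in R882H. Ccng2, cyclin G2 (ENSMUSG00000029385, chr5:93267257-93276231), had 12.5 and 11.5 CPM in EV and 40.3 and 37.9 CPM in R882H. Both cyclins were more than doubled in each R882H library over each EV library, and both are atypical cyclins linked to growth arrest; Ccng2 is also known as a target of FoxO factors. The log2 fold changes were 1.45 ± 0.17 for Ccng1 (adjusted p = 1.83e-08) and 1.71 ± 0.18 for Ccng2 (adjusted p = 1.81e-09).

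Sestrins restrain the growth kinase complex mTORC1. Sesn1 (ENSMUSG00000038332, chr10:41809935-41908424) had 27.9 and 22.1 CPM in EV and 55.5 and 49.5 CPM in R882H (log2 fold change 1.07 ± 0.16, adjusted p = 2.46e-06). Sesn3 had 2.57 and 2.65 CPM in EV and 7.36 and 9.83 CPM in R882H (1.71 ± 0.34, adjusted p = 0.000132). The third sestrin gene, Sesn2, was not a member and went the other way, with 6.97 and 7.24 CPM in EV and 3.35 and 4.04 CPM in R882H (−0.94 ± 0.33, adjusted p = 0.0207). Its call ended without any 1 of the 4 libraries and in DESeq2 (highest adjusted p 0.162). Sesn2 is also known as a target of the stress factor ATF4.

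Gtse1 is a gene of the G2 and S phases whose product binds p53 and restrains it. It had 78.3 and 87.9 CPM in EV and 129 and 146 CPM in R882H, without overlap (0.72 ± 0.13, adjusted p = 5.06e-05). Of the 8 genes of proliferating cells, 3 rose and 1 fell (50% called beside 38.8% of all tested genes). Their summed level was 2021 to 2066 CPM in EV and 2223 to 2412 CPM in R882H. The part of cell cycling in the Gtse1 value was not tested. The antiproliferative gene Btg2 had 3.12 and 2.82 CPM in EV and 2.68 and 2.11 CPM in R882H and was not called (−0.31 ± 0.43). Plk2, a polo-like kinase gene, had 3 and 7 counts in EV and 1 and 0 in R882H, and Zmat3, which encodes an RNA-binding zinc finger protein, had 4 and 6 in EV and 6 and 1 in R882H. With no filter on low counts, the adjusted p was 0.0839 for Plk2 and 0.671 for Zmat3.

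**Figure D2:**
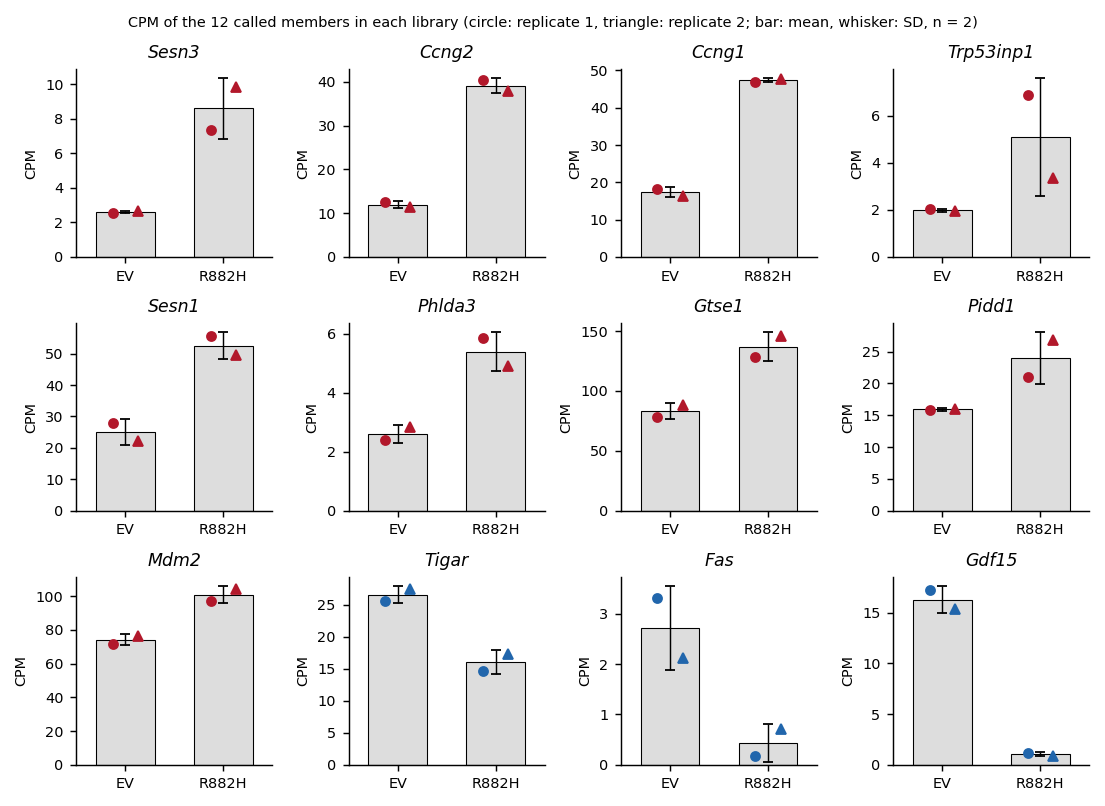
CPM of the 12 called members in each library; points are libraries, bars the mean and whiskers the SD (n = 2 per group). No panel has overlapping groups, but these members were picked by their calls in the same libraries, and 69.1% of all tested genes had no overlap. Gdf15 and Fas lie near 0 in both R882H libraries.

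The apoptosis and stress members moved in both directions: of 13, 3 rose, 2 fell, 4 were not called and 4 did not pass the filter on low counts. Thus 55.6% of those tested were called, beside 38.8% of all tested genes. Gdf15 (ENSMUSG00000038508, chr8:70629393-70632456), a secreted factor of the TGF-beta superfamily, had 94 and 87 counts in EV and 7 and 5 counts in R882H. This was the largest change among the tested members, a log2 fold change of −3.96 ± 0.35 (adjusted p = 2.66e-11). The ratio of EV over R882H counts was 15.8, with an exact 95% interval of 8.85 to 31.2 that covers counting error only. Gdf15 is also known as a target of ATF4 and CHOP.

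Both death receptors that were detected were lower in R882H. Fas (ENSMUSG00000024778, chr19:34290666-34327772), the receptor for Fas ligand, had 18 and 12 counts in EV and 1 and 4 counts in R882H. The groups did not overlap, and the log2 fold change was −2.60 ± 0.66 (adjusted p = 0.00192), with a ratio of EV over R882H counts of 6.30 (exact 95% interval 2.42 to 20.8). Its call ended without EV replicate 1 (adjusted p = 0.0685) and without R882H replicate 1 (0.0922), where the log2 fold change was −1.90, and without R882H replicate 2 it was −3.83. Tnfrsf10b, the mouse receptor for the ligand TRAIL, had 6 and 11 counts in EV and none in R882H, at least 5.95-fold lower when the R882H group is set at 3 counts. It did not pass the filter on low counts; with no filter edgeR gave an adjusted p of 0.000620. The third receptor of the list, Eda2r, had no counts in any library.

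Of the stress members that rose, Trp53inp1, a gene linked to autophagy and p53 activity, had 11 and 11 counts in EV and 41 and 19 counts in R882H (1.36 ± 0.43, adjusted p = 0.0111). The 2 R882H libraries differed widely: the log2 fold change was 0.76 without R882H replicate 1 (adjusted p = 0.395) and 1.80 without R882H replicate 2, and the call also ended without either EV library and in DESeq2. Phlda3, whose product opposes the survival kinase AKT at the membrane, had 13 and 16 counts in EV and 35 and 28 counts in R882H (1.04 ± 0.38, adjusted p = 0.0277). Leaving out any 1 library, or using DESeq2, ended the Phlda3 call (highest adjusted p 0.188). Pidd1, the scaffold of the caspase-2 activating complex, had 15.8 and 16.1 CPM in EV and 21.1 and 26.9 CPM in R882H, without overlap (0.59 ± 0.19, adjusted p = 0.0132). DESeq2 gave an adjusted p of 0.104 for Pidd1, and leaving out either EV library or R882H replicate 2 also ended the call (0.0597, 0.0511 and 0.203).

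No call was made among the other apoptosis members that could be tested. Apaf1, the core of the apoptosome, had 37.2 and 42.5 CPM in EV and 51.2 and 47.7 CPM in R882H and was not called (0.31 ± 0.15, adjusted p = 0.101). The log2 fold changes were 0.19 ± 0.15 for Ei24, a gene of endoplasmic reticulum membranes, −0.02 ± 0.14 for the nuclease gene Aen and −0.01 ± 0.14 for Triap1, an inhibitor of apoptosis. For Aen and Triap1 the 95% intervals were −0.32 to 0.27 and −0.28 to 0.27. Perp, a desmosomal protein gene, had no counts in EV and 2 in each R882H library, and Dram1, a lysosomal gene of autophagy, had 3 and 0 counts in EV and 4 and 7 in R882H. Neither passed the filter on low counts, and with no filter edgeR gave adjusted p-values of 0.303 for Perp and 0.261 for Dram1.

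None of the 5 DNA repair and nucleotide supply members was called, beside 38.8% of all tested genes. The damage sensor gene Xpc had 58.9 and 61.4 CPM in EV and 59.4 and 57.6 CPM in R882H, and its log2 fold change was −0.04 ± 0.14 (95% interval −0.31 to 0.23). The other repair and nucleotide supply members had lower CPM than Xpc in every library, and larger standard errors. The lesion-bypass polymerase gene Polk had 11.2 and 7.77 CPM in EV and 14.1 and 11.6 CPM in R882H (0.44 ± 0.24, adjusted p = 0.148). Values were 0.45 ± 0.38 for the repair endonuclease gene Ercc5, 0.38 ± 0.34 for Ddb2, which recognises ultraviolet lesions, and 0.08 ± 0.33 for Rrm2b, the p53-inducible subunit of ribonucleotide reductase. The exons of Ddb2 overlap those of Acp2, which had 91 and 105 counts in EV and 91 and 86 in R882H, and whether the counting split shared reads is not known.

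Of the 2 metabolic members, 1 fell. Tigar (ENSMUSG00000038028, chr6:127085116-127109557), which lowers glycolytic flux by removing fructose-2,6-bisphosphate, had 25.7 and 27.5 CPM in EV and 14.7 and 17.4 CPM in R882H. Both R882H libraries were below both EV libraries (−0.73 ± 0.18, adjusted p = 0.00172), and the call ended without R882H replicate 1 (0.0628). Fdxr, the ferredoxin reductase of mitochondria, had 35.8 and 41.5 CPM in EV and 35.6 and 35.1 CPM in R882H and was not called (−0.13 ± 0.16).

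**Figure D3:**
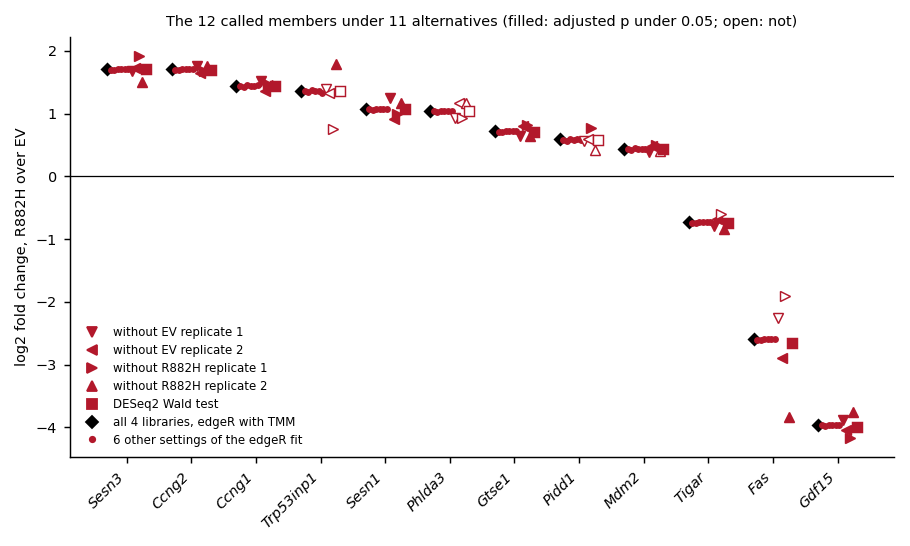
Log2 fold change (R882H over EV) of the 12 called members with all 4 libraries and under 11 alternatives; filled symbols have an adjusted p under 0.05. Sesn3, Ccng2, Ccng1, Sesn1, Gtse1 and Gdf15 are filled throughout, and all 12 keep their sign.

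Other genes of the pathway were taken from a list of regulators and a list of further targets. Of 25 tested further targets, 8 rose and 6 fell (56% called beside 38.8% of all tested genes), with a median log2 fold change of 0.11. Cdkn1a, which encodes the cell cycle inhibitor p21 (ENSMUSG00000023067, chr17:29090976-29100727), had 13.8 and 20.3 CPM in EV and 81.3 and 98.7 CPM in R882H. It had the largest rise of this list, 5.27-fold (2.40 ± 0.17, adjusted p = 8.08e-14), and was called under every alternative. Of the BH3-only death genes, Bbc3 (Puma) had 13.8 and 15.7 CPM in EV and 30.8 and 24.2 CPM in R882H and rose (0.90 ± 0.19, adjusted p = 0.000249). Pmaip1 (Noxa) had 37.4 and 42.7 CPM in EV and 27.4 and 25.5 CPM in R882H and fell (−0.60 ± 0.17, adjusted p = 0.00418), with the call lost without R882H replicate 2 (0.0646). Bax, the pore-forming effector, had 9.35 and 10.2 CPM in EV and 4.52 and 7.72 CPM in R882H and was not called (−0.68 ± 0.28, adjusted p = 0.0544). Bax was called in 3 alternatives, with library size alone (0.0467), with the replicate block (0.0460) and without R882H replicate 2 (0.0204), and its log2 fold change was −0.33 without R882H replicate 1.

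The remaining risers of that list were Bid, a death agonist (0.63 ± 0.13), the reductase gene Steap3 (1.09 ± 0.17), Dcxr (0.86 ± 0.21), the phosphatase gene Ptprv (0.93 ± 0.30), Siva1 (0.40 ± 0.14) and the inflammatory caspase gene Casp1 (0.55 ± 0.18), on the log2 scale. Those that fell were Thbs1, thrombospondin 1 (−2.11 ± 0.33), Sfn, the 14-3-3 sigma gene (−1.46 ± 0.28), the tetraspanin gene Cd82 (−1.19 ± 0.29) and Sertad1 (−0.71 ± 0.21), beside Sesn2 and Pmaip1. Thbs1 differed between the EV libraries, with 10.3 and 22.2 CPM. Calls ended under at least 1 alternative for Steap3, Ptprv, Siva1, Casp1 and Sertad1 (highest adjusted p 0.0753, 0.190, 0.195, 0.254 and 0.0811), and exons of Bid overlap Bcl2l13.

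Of 26 tested regulators upstream of p53, 4 rose and 8 fell (46.2% called beside 38.8% of all tested genes), with a median of −0.04. Cdkn2a (ENSMUSG00000044303, chr4:89274471-89294653) had 0 and 2 counts in EV and 69 and 64 in R882H, a ratio of 63.3 (exact 95% interval 17.2 to 528). The gene encodes the Mdm2 inhibitor p19Arf and the kinase inhibitor p16Ink4a, whose transcripts share their 3′ exons, so that 3′ tags do not separate them. The damage kinase gene Atm had 101 and 127 counts in EV and 55 and 74 counts in R882H and fell (−0.89 ± 0.21, adjusted p = 0.00111), with an adjusted p of 0.0577 without R882H replicate 1. Its relative Atr rose (0.61 ± 0.15, adjusted p = 0.00140), with an adjusted p of 0.0778 without R882H replicate 2, and exons of Atr overlap 1700065D16Rik and Gm16794. Chek2, the kinase below Atm, had 43.8 and 44.0 CPM in EV and 38.8 and 53.7 CPM in R882H and was not called (0.07 ± 0.16).

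Of 3 genes of acetyltransferases that act on p53, Ep300 (−0.77 ± 0.15) and Crebbp (−0.82 ± 0.15) fell and Kat5, named after its values were seen, was not called (0.04 ± 0.20, adjusted p = 0.898; its exons overlap Rnaseh2c). Also lower were the p53 kinase gene Hipk2 (−0.98 ± 0.24), the methyltransferase gene Kmt5a (−0.65 ± 0.13), Prmt5 (−0.37 ± 0.13), the Mdm2 deubiquitinase gene Usp7 (−0.45 ± 0.13) and Trp53bp2 (−0.53 ± 0.21). The ubiquitin ligase gene Trim24 (0.92 ± 0.21) and the ribosomal protein gene Rpl11, whose product can bind Mdm2 (0.85 ± 0.16), rose. Rpl11 differed between the EV libraries, with 532 and 325 CPM, and lost its call in DESeq2 (adjusted p = 0.0628). Calls of Usp7, Prmt5 and Trp53bp2 ended under at least 2 alternatives (highest adjusted p 0.101, 0.296 and 0.285). The p53 relatives Trp63 and Trp73 had no counts in any library.

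**Figure D4:**
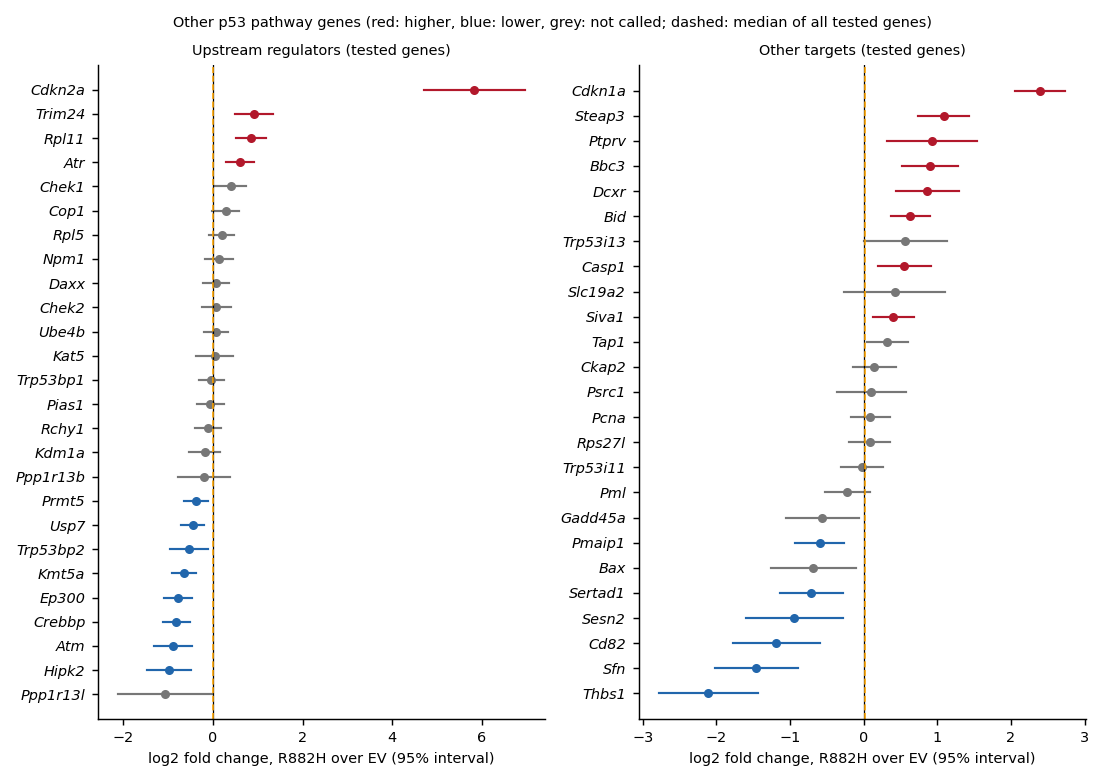
Log2 fold change (R882H over EV) with 95% intervals of the tested regulators upstream of p53 (left) and further p53 targets (right), from the edgeR fit over 4 libraries. Cdkn2a and Cdkn1a, at 5.82 and 2.40, stand at the top; the fitted value of Cdkn2a depends on the prior count because EV held 2 counts in all.

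The cells of the groups also differed in lineage markers, whose part in the values above was not tested. The marker counts below stand beside 19.3% of all tested genes that rose and 19.4% that fell. Progenitor markers were present in every library, with a summed level of 2646 to 2804 CPM in EV and 4055 to 4149 CPM in R882H, and of these 10 genes 3 rose and 2 fell. Most of the rise in that sum was Mpo, with 166 and 198 counts in EV and 7250 and 7237 in R882H. Cebpa fell (−0.74 ± 0.14). Counts of Hoxb8, the gene the line is named for, fell from 25 and 44 to 15 and 4 (−1.92 ± 0.45, edgeR adjusted p = 0.000824). The labels describe no introduced Hoxb8 sequence, and 3′ tags of the mouse gene need not cover one. Of 7 tested B lineage markers all 7 rose, with sums of 659 to 669.5 CPM in EV and 1718 to 1725 CPM in R882H, and all 3 tested basophil and mast cell markers rose, with sums of 42.2 to 44.1 CPM and 374 to 394 CPM; Fcer1a and Tpsb2 were at 0. Megakaryocyte markers summed to 873 to 1060 CPM in EV and 21.8 to 26.9 CPM in R882H (of 4 tested, 1 rose and 2 fell). Most of the EV sum was Pf4, with 5635 and 4781 counts in EV and 90 and 60 in R882H. Ppbp also fell (−5.57 ± 0.42), while Itga2b rose (1.35 ± 0.38) and Gp9 was not called (0.41 ± 0.35). Neither of 2 tested erythroid markers was called, with sums of 10.9 to 13.9 CPM in EV and 8.78 to 9.37 CPM in R882H and with Hba-a1 and Epor at 0, and all 4 fibroblast markers were at 0. The Y-linked gene Ddx3y had 0 and 2 counts in EV and 65 and 41 in R882H, and the X-inactivation RNA Xist 1463 and 1438 in EV and 1880 and 1509 in R882H; the labels give no sex, and an origin that differs between the groups cannot be told apart from the variant. Dnmt3a had 264 and 270 counts in EV and 254 and 239 in R882H, and 3′ tags of the mouse gene need not cover the introduced sequence, so this does not check the labels. In such bulk samples, fewer cells of a type and less RNA per cell cannot be told apart.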

How the data were processed

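The table the authors deposited holds raw counts of reads, with genes as rows and the 4 libraries as columns. Tools named in the submitters' processing notes are limma 3.48.3, edgeR 3.34.0, Subread 2.0.0 with featureCounts, HISAT2 2.0.4, cutadapt 1.14 and bcl2fastq 2.17.1.14, and the build named is mm10. For the annotation, strand setting and handling of multiply mapped reads, the sources used here give nothing. Symbols and positions (1-based) came from GENCODE M21, on the assembly of mm10, for 52489 lines. Counts of the 4 libraries totalled 5470330 and 5605092 (EV) and 5921985 and 5847609 (R882H); a count of 0 allows up to 3 counts, or 0.502 to 0.55 CPM. Intervals on counts cover counting error only.

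Tests used edgeR 4.0.16 in R 4.3.3 on all genes (filterByExpr by group, TMM factors, robust glmQLFit, glmQLFTest, Benjamini-Hochberg adjustment, threshold 0.05), and DESeq2 1.42.0 as an alternative. Fold changes are R882H over EV, with a standard error of the absolute log2 value over the square root of F. CPM use TMM-scaled library sizes. The test was tested on simulated data. Genes whose exons overlap another gene with at least 10 counts in all are named as such. All members are named; from the other lists every called gene, with Cdkn1a, Bax, Bbc3, Pmaip1, Cdkn2a, Atm and Chek2 whatever their value. Members and lists were chosen with earlier results of these data known.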

Additional observations from a re-analysis of the deposited data

How the results depend on the processing

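In all, 11 alternatives were run: other size factors, library size alone, other filters on low counts, no robust estimation, a replicate block, DESeq2, and each library left out. The number of called members was 12 with all libraries, 9 in DESeq2 and 9 to 11 with a library left out. Over all genes 4435 were called, 2918 in DESeq2 and 2954 to 4233 with a library left out, lowest without R882H replicate 1. Of the 12 called members, 6 were called under every alternative, and all kept their sign. Signs turned, among the members and other genes named, for genes that were not called, with these ranges of the log2 fold change over the fits that left out a library: Trp53 −0.38 to 0.12, Aen −0.12 to 0.065, Triap1 −0.10 to 0.081, Rrm2b −0.39 to 0.44 and Chek2 −0.16 to 0.30. Over 54 named genes and 11 alternatives, 530 of 594 values kept direction and side of the threshold, 51 lost a call, 5 gained one and 8 turned sign; the causes were not tested. The correlation of replicate differences between groups was −0.003 across genes. Counting noise lowers such a correlation, so it cannot show whether libraries with the same replicate number were paired. The replicate block gave 4425 calls over all genes and the same 12 members. Where a fit left 1 library in a group, that library was assumed to vary like the others. The 6 members that did not pass the filter had at most 11 counts in any library. With no filter, 13 of 31 tested members were called, Tnfrsf10b among them, beside 24.4% of the 18806 genes then tested.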
